A study of Drosophila melanogaster with 16 samples.

Results

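The cytochrome P450 genes of Drosophila melanogaster were followed through 8 genotypes of naïve embryos, with 2 microarrays per genotype. Members were the genes whose symbol is Cyp followed by a digit, each read by 1 probeset (the probes of 1 transcript) that the array annotation ties to a single gene. Where a gene had several such probesets, the one with the largest interquartile range over the arrays was taken, and a gene was tested when its log2 value was above 2.5 in at least 2 arrays. This rule took 64 of the 8860 genes tested. Cyp1 and Cyp40, 2 of these 64, are cyclophilins, which assist protein folding and share only the letters of the symbol, and they were set aside. The 62 members left were the tested share of 81 P450 genes with a single-gene probeset. The other 19 P450 genes did not pass the filter, and 7 of them lay at the lowest value of the arrays (2.29) on all 16 arrays.

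Naïve embryos come from mothers mutant for bcdE1, nosL7 and tsl146, and so lack the maternal cues that set up the head, the abdomen and both ends. All embryos compared here share that background. The series used them to ask which genes respond when canonical or non-canonical Wnt signalling is raised or blocked. WT denotes naïve embryos that express no transgene. In the other 7 genotypes da-Gal4, a driver active throughout the embryo, switched on UAS transgenes. Wg++ embryos expressed Wingless, the main canonical Wnt ligand of the fly. arm∆N embryos expressed Armadillo (the fly β-catenin) without its N-terminal phosphorylation sites, which stabilises the protein. DisArmed is a dominant negative Armadillo. tcf∆N-long is TCF without the N-terminal domain that binds β-catenin, and tcf∆N-short is shorter still, without the Groucho binding sequence and the C-clamp. arm∆N-tcf∆N-short embryos expressed both of these proteins. Otk++ embryos expressed Otk, a co-receptor of the non-canonical ligand Wnt4. Each array held RNA of about 50 pooled embryos aged 4 to 16 h, so a group is a mean over a wide span of development and over all tissues, and fewer cells of a type cannot be told apart from less RNA per cell. The labels do not say whether the 2 arrays of a genotype came from separate crosses, so the p-values measure only the spread between these arrays.

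P450 enzymes are haem proteins that use oxygen and electrons from a redox partner to hydroxylate small molecules. In insects they fall into clans. CYP3 enzymes (Cyp6, Cyp9, Cyp28, Cyp309, Cyp310 and Cyp317 here) are best known for clearing plant compounds and insecticides, CYP4 enzymes include fatty acid and hydrocarbon oxidases, and the CYP2 and mitochondrial clans hold the enzymes that make and break down the moulting hormone ecdysone. Many are expressed in the midgut, the fat body, the Malpighian tubules or the oenocytes, and many lie in runs of neighbouring duplicates.

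The deposited values are log2 intensities after GC-RMA, which removes background by probe sequence and scales the arrays to one distribution. Array medians lay between 2.93 and 3.24. Values are compared between genotypes within a probeset, since probesets differ in brightness. Summed marker levels add linear intensities, so that they follow the brightest probesets of a list. A genotype whose mean was under 3 lay close to the lowest value, and the size of any change from or to such a mean is limited by that floor. Of the genes expressed as transgenes, otk was the one read here. It stood at 7.62 and 7.67 in Otk++ and at 6.69 and 7.33 in WT, a difference of 0.64 ± 0.30 (SE) that did not pass the test (adjusted p = 0.32). The labels of the other genotypes were not checked in this way. Marker lists moved with some genotypes. Of 11 tested midgut genes (trypsins, Jonah proteases and maltases) 8 were lower in Wg++ (22.1% of all genes) and 6 in arm∆N (11.6%). In tcf∆N-short 5 were higher (2.51% of all genes), in tcf∆N-long 7 (1.48%) and in arm∆N-tcf∆N-short 5 (1.7%). Of 7 tested genes of maternal RNAs, osk, swa and stau were higher in Wg++ (18.8% of all genes). Of the genes mutant in the mothers, bcd and tsl were tested. In Wg++ bcd was called higher, at 7.68 and 8.17 against 2.71 and 4.68 in WT. There tsl was called lower, at 4.13 and 4.84 against 6.60 and 5.91 in WT. The source of these differences was not tested.

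Across the 7 comparisons with WT, the F test (limma, false discovery rate under 1%) found 18 of the 62 members altered (29.0%), against 12.3% of all 8860 genes tested. They were Cyp28d2, Cyp309a1, Cyp6a17, Cyp4d1, Cyp6d5, Cyp4e1, Cyp4p2, Cyp6a14, Cyp12c1, Cyp4ad1, Cyp49a1, Cyp28d1, Cyp4ac1, Cyp4d14, Cyp6a23, Cyp6a2, Cyp304a1 and Cyp6d4. The first 4 were altered in all 16 fits that each left out 1 array. The count fell to 7 without Wg++ replicate 1, 8 without Wg++ replicate 2, 9 without arm∆N replicate 1, and 11 without either tcf∆N-long replicate or without DisArmed replicate 2.

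A member was called in a single comparison when its fold change exceeded 1.5 with a false discovery rate under 10%. The 7 comparisons with WT share the same 2 WT arrays. Counts from fits that left out 1 array, above and below, stand without the share of all genes in those fits. They show how far a count rests on single arrays, and cannot be set against all genes. In Wg++ 27 of 62 members were called (43.5%; 40.8% of all genes), 6 higher (9.68%; 18.8% of all genes) and 21 lower (33.9%; 22.1% of all genes). The median member stood at −0.46 in Wg++ minus WT and the median of all genes at −0.11. In arm∆N 17 were called (27.4%; 19.6% of all genes), 8 higher (7.92% of all genes) and 9 lower (11.6%), with a median of −0.01 against −0.08. In tcf∆N-short 8 were called (12.9%; 7.71% of all genes), 5 higher (2.51%) and 3 lower (5.2%), with a median of 0.10 against 0.00. In tcf∆N-long 6 were called (9.68%; 3.72% of all genes), 4 higher (1.48%) and 2 lower (2.25%), with a median of 0.15 against −0.08. In arm∆N-tcf∆N-short 6 were called (9.68%; 3.17% of all genes), 3 in each direction (1.7% of all genes higher and 1.47% lower). After cyclic loess scaling of the arrays the split was 3 higher and 1 lower there, and 7 higher and 2 lower in tcf∆N-short. In DisArmed 2 were called (3.23%; 0.598% of all genes). The count in Wg++ was 17 without WT replicate 1 and 14 without Wg++ replicate 1. The count in arm∆N was 11 and 10 without arm∆N replicates 1 and 2. In tcf∆N-long it was 1 without either tcf∆N-long replicate, 3 without WT replicate 1 and 10 without either Otk++ replicate. In arm∆N-tcf∆N-short it was 2 without that genotype's replicate 2 and 3 without either replicate of tcf∆N-short, tcf∆N-long, arm∆N or DisArmed. In DisArmed it was 4 without WT replicate 2.

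**Figure D1:**
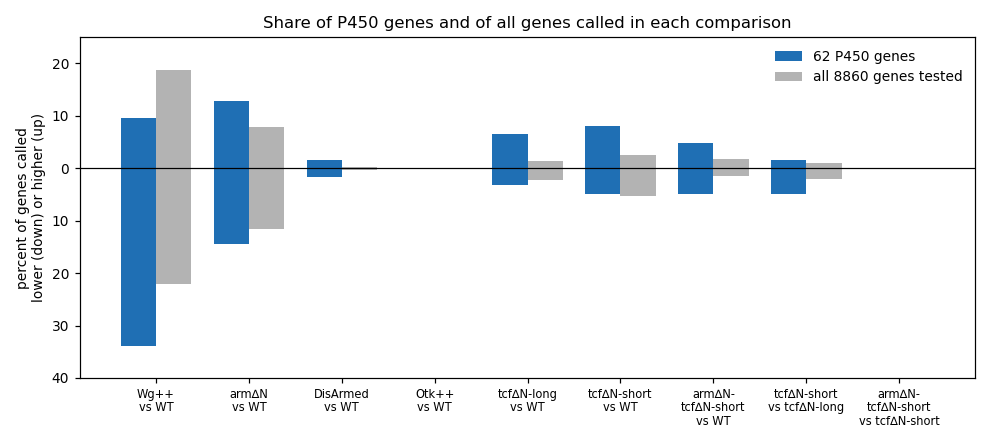
Bars show the percent of the 62 P450 genes (blue) and of all 8860 genes tested (grey) called higher (upwards) or lower (downwards) in each of 9 comparisons, at a fold change above 1.5 and a false discovery rate under 10%. In Wg++ the blue bar is longer than the grey bar on the lower side, at 33.9% against 22.1%, and shorter on the higher side, at 9.68% against 18.8%.

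In all, 37 of the 62 members (59.7%) were called in at least 1 comparison with WT, against 51.9% of all genes. Of these, 21 were called in 1 comparison, 8 in 2, 5 in 3, 1 in 4 and 2 in 5. Cyp28d2, Cyp309a1 and Cyp6a23 were called higher in one genotype and lower in another, and the other 34 were called in a single direction. Calls of members named from here on remained in all 16 fits that left out 1 array unless arrays or fits are named beside them. Of 70 calls of a member over the 9 comparisons, 32 did so.

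**Figure D2:**
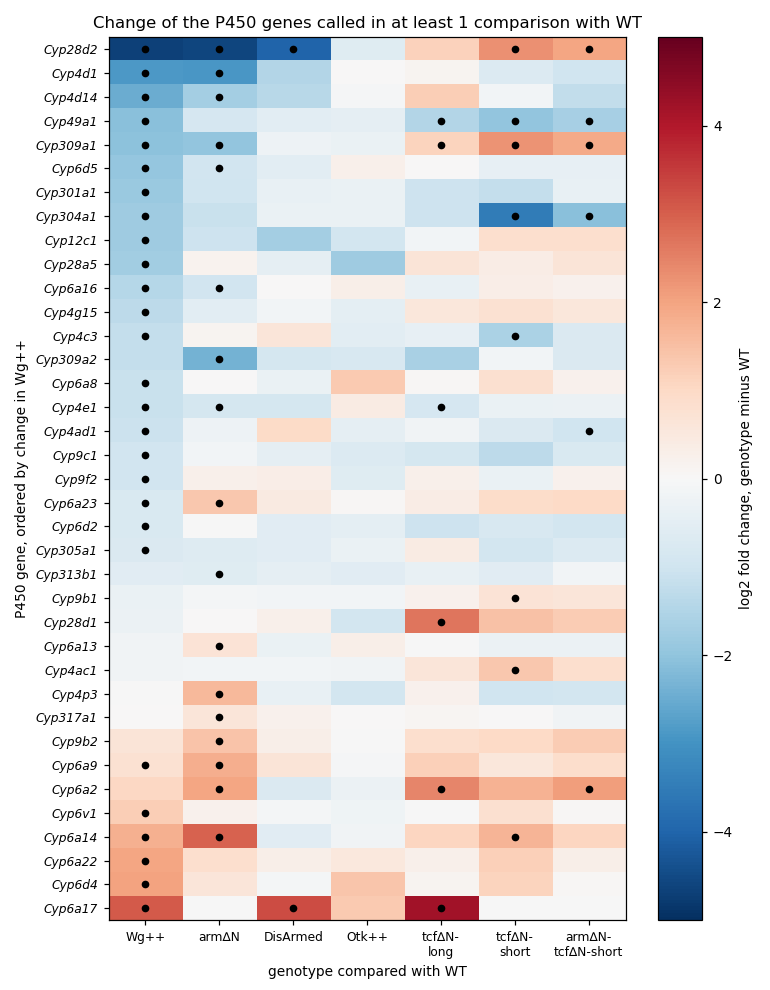
Each cell gives the log2 fold change of one P450 gene in one genotype minus WT, from blue (lower) through white to red (higher), for the 37 members called in at least 1 of these comparisons. Black dots mark the calls. Cyp28d2 is the darkest blue cell in Wg++, arm∆N and DisArmed (−4.67, −4.60 and −3.99), and Cyp6a17 the darkest red in tcf∆N-long (4.21).

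Cyp28d2 had the lowest F-test p of the members and the widest range over arrays, 7.21 on the log2 scale. It is a CYP3 gene of chromosome arm 2L, at chr2L:5207267-5209345 (Release 6 plus ISO1 MT). Its log2 values were 7.86 and 7.89 in WT, 3.07 and 3.34 in Wg++, 3.11 and 3.44 in arm∆N, and 4.12 and 3.66 in DisArmed. They were 9.11 and 8.97 in tcf∆N-long, 10.07 and 10.28 in tcf∆N-short, 9.72 and 9.99 in arm∆N-tcf∆N-short, and 6.58 and 8.0 in Otk++. The 6 arrays of Wg++, arm∆N and DisArmed lay below all others, and a gap of 2.46 separated them from the lower Otk++ array. Cyp28d2 fell by 4.67 ± 0.37 in Wg++ (25.5-fold, adjusted p = 7.13e-05) and by 4.60 ± 0.37 in arm∆N (24.2-fold, adjusted p = 5.75e-05). It rose by 2.30 ± 0.37 in tcf∆N-short (4.91-fold, adjusted p = 0.0047). In arm∆N-tcf∆N-short it rose by 1.98 ± 0.37 (adjusted p = 0.016), a call lost without that genotype's replicate 2 (adjusted p = 0.12). The difference in tcf∆N-long was 1.16 ± 0.37 and did not pass the test (adjusted p = 0.14), although both arrays lay above both WT arrays. In Otk++ the arrays lay on either side of those of WT.

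Cyp28d1, the paralogue next to Cyp28d2 on 2L, gave other values. It stood at 7.29 and 6.91 in WT, 6.87 and 6.77 in Wg++, 7.01 and 7.24 in arm∆N, and 7.67 and 7.03 in DisArmed, so that WT overlapped each of the last 2. In Wg++, arm∆N and DisArmed its differences from WT were −0.28, 0.02 and 0.25, none of which passed the test. It read 9.69 and 9.90 in tcf∆N-long, 8.15 and 9.02 in tcf∆N-short, 7.98 and 8.77 in arm∆N-tcf∆N-short, and 5.38 and 6.97 in Otk++. Cyp28d1 rose in tcf∆N-long by 2.69 ± 0.48 (6.47-fold, adjusted p = 0.023), a call lost without tcf∆N-long replicate 1 or 2 (adjusted p between 0.14 and 0.16). Of the next genes before the pair, ND-13A and Msp300 did not move like Cyp28d2. Their differences in Wg++, arm∆N and DisArmed lay between −0.45 and 0.95. CG4230, further before the pair, read 3.06 and 3.91 in WT. CG7742, after the pair, lay between 2.32 and 2.65 on all arrays. Neither CG4230 nor CG7742 had room above the floor for such a fall.

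Cyp309a1, a CYP3 gene of 2L, followed a like order of genotypes apart from DisArmed. Its log2 values were 4.41 and 4.32 in WT, 2.29 and 2.32 in Wg++, and 2.51 and 2.29 in arm∆N, all 4 of the latter at or near the lowest value. They were 5.56 and 5.44 in tcf∆N-long, 6.44 and 6.80 in tcf∆N-short, and 6.43 and 6.05 in arm∆N-tcf∆N-short. In DisArmed it read 4.19 and 4.03, and in Otk++ 3.70 and 4.35. Cyp309a1 fell by 2.06 ± 0.23 in Wg++ (adjusted p = 0.00042) and by 1.97 ± 0.23 in arm∆N (adjusted p = 0.00074), sizes that the floor limits. It rose by 2.25 ± 0.23 in tcf∆N-short (4.76-fold, adjusted p = 0.00027) and by 1.88 ± 0.23 in arm∆N-tcf∆N-short (3.67-fold, adjusted p = 0.0012). In tcf∆N-long it rose by 1.13 ± 0.23 (adjusted p = 0.040), a call lost without WT replicate 1 or either tcf∆N-long replicate (adjusted p between 0.12 and 0.23). Its neighbour Cyp309a2 stood at 5.63 and 5.91 in WT and at 3.47 and 3.32 in arm∆N, and fell by 2.38 ± 0.56 there (5.21-fold, adjusted p = 0.020). In tcf∆N-short Cyp309a2 read 5.58 and 5.69, close to WT.

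The midgut markers moved with both genes in part. The summed linear intensity of the 11 lay between 714 and 1574 in WT, between 3622 and 3854 in tcf∆N-short, between 4058 and 4406 in tcf∆N-long and between 3648 and 3946 in arm∆N-tcf∆N-short. In Wg++ it lay between 409 and 689 with 9 of the 11 markers under a mean of 3, and in arm∆N between 860 and 1229 with 8 of them under 3. In WT 1 marker was under 3. Jon65Aiv was the brightest marker in Wg++ (9.24 and 8.35) and in arm∆N (9.47 and 10.03), so these sums mainly follow it. It stood at 8.77 and 7.90 in WT and at 6.48 and 6.98 in tcf∆N-short. The means of the other markers went the other way, below WT in Wg++ and arm∆N and above WT in tcf∆N-short. In DisArmed the sum lay between 502 and 1140 with 2 markers under 3, and none of the 11 was called there. The part of midgut RNA in the values of Cyp28d2 and Cyp309a1 was not tested.

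**Figure D3:**
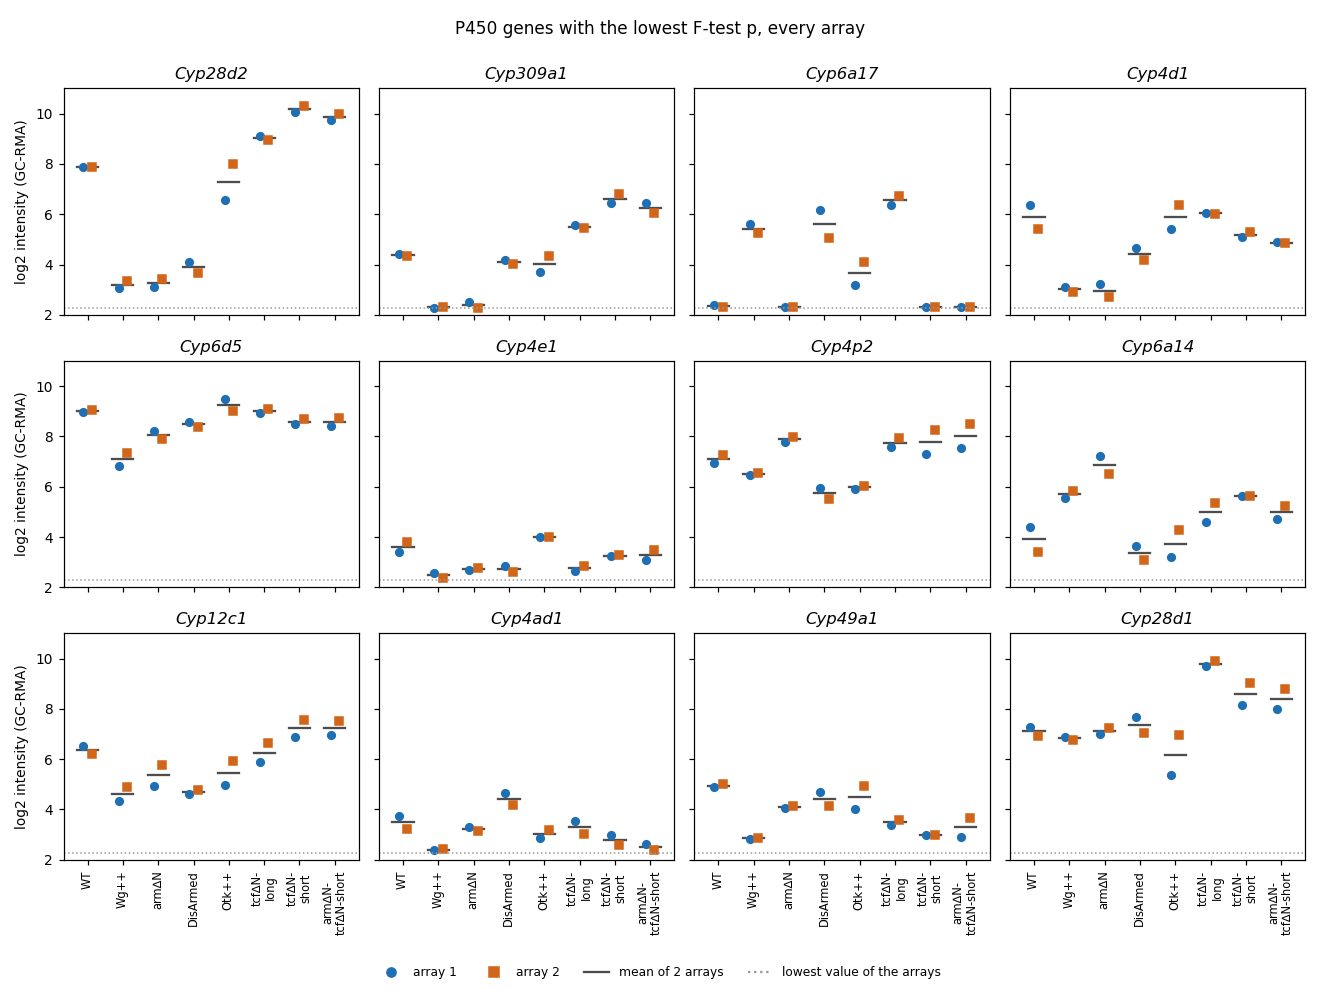
Log2 intensity (GC-RMA) of the 12 P450 genes with the lowest F-test p, by genotype. Blue circles and orange squares are arrays 1 and 2 of a genotype, bars their mean, and the dotted line the lowest value of the arrays (2.29). Cyp28d2 spans 3.07 to 10.28, and Cyp6a17 lies on the dotted line or just above it in 4 genotypes and between 3.20 and 6.73 in the other 4.

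Cyp6a17, a CYP3 gene known for its role in the temperature preference of adult flies, lies on 2R at chr2R:14873953-14875739 (Release 6 plus ISO1 MT). Its log2 values were 2.38 and 2.30 in WT, 2.31 and 2.31 in arm∆N, 2.32 and 2.32 in tcf∆N-short, and 2.30 and 2.33 in arm∆N-tcf∆N-short, all at the floor. They were 6.37 and 6.73 in tcf∆N-long, 5.62 and 5.24 in Wg++, 6.17 and 5.06 in DisArmed, and 3.20 and 4.11 in Otk++. No array of the second set came below 3.20, and no array of the first above 2.38. Cyp6a17 was called higher in tcf∆N-long (4.21 ± 0.35, adjusted p = 0.00028), in Wg++ (3.09 ± 0.35, adjusted p = 0.00049) and in DisArmed (3.27 ± 0.35, adjusted p = 0.0021). The Otk++ difference of 1.32 ± 0.35 did not pass the test (adjusted p = 0.16). In tcf∆N-short minus tcf∆N-long it differed by −4.23 ± 0.35 (adjusted p = 0.00013). These sizes are limited by the floor.

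Wg++ and tcf∆N-long stood on the same side of this split, as did arm∆N and tcf∆N-short, whereas Wg++ and arm∆N stood on opposite sides. Cyp6a17 was marked as a possible stock variant, which was not tested. According to the paper, both TCF transgenes were injected into the same strain, and tcf∆N-long and tcf∆N-short stood on opposite sides. The transgene and the fly stock that carried it cannot be told apart in this design. Alleles that lack Cyp6a17 are known from natural populations, as background. A strict criterion of 2 levels, in which a gap of at least 2 separates whole genotypes and exceeds the range on each side, was met by 36 of the 8860 genes and by none of the 62 members. Cyp6a17 missed it because Otk++ lay between the levels and the largest gap was 0.95, from 4.11 to 5.06. Cyp28d2 had a gap of 2.46 but a wider range above it. Under a looser criterion chosen after its values were seen, with every array of a genotype under 2.5 or every array at 3 or more, Cyp6a17 was the only member among 37 genes, and no other of the 37 was high in the same 4 genotypes.

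Cyp6a17 is the second gene in a run of 9 neighbouring P450 genes on 2R, all of them tested. Its nearest neighbours did not share its levels. Pcf11, a gene of messenger RNA 3′ end processing, lay between 6.11 and 7.73 on all arrays. Pcf11 read 6.11 and 7.0 in WT and 7.69 and 7.73 in Wg++. It was called higher in Wg++ in the fit of all arrays (1.15, adjusted p = 0.0080). Cyp6a22, just before Cyp6a17, read 4.59 and 4.44 in WT, 6.87 and 6.11 in Wg++, 6.01 and 4.74 in arm∆N, and 6.54 and 4.90 in tcf∆N-short. In the other 4 genotypes it lay between 4.11 and 5.55. It was called higher in Wg++ (1.97 ± 0.63, adjusted p = 0.032), a call lost without WT replicate 2 or Wg++ replicate 1 (adjusted p between 0.11 and 0.19). Cyp6a23, after it, read 6.15 and 5.47 in WT, 5.14 and 4.93 in Wg++, and 7.42 and 6.91 in arm∆N. It rose in arm∆N by 1.36 ± 0.29 (2.56-fold, adjusted p = 0.014). In Wg++ it was called lower (−0.78 ± 0.29, adjusted p = 0.059), a call lost without WT replicate 1 or either Wg++ replicate (adjusted p between 0.13 and 0.34).

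Further along the run, Cyp6a9 read 3.19 and 2.88 in WT and 4.79 and 4.90 in arm∆N, and rose there by 1.81 ± 0.33 (3.50-fold, adjusted p = 0.0070). Cyp6a20, which is known to influence aggression in adult males, and Cyp6a21 were called in no comparison. Cyp6a8, a gene induced by many foreign compounds, read 7.69 and 6.89 in WT, 6.25 and 6.09 in Wg++, and 8.76 and 8.43 in Otk++. Its call in Wg++ (−1.12 ± 0.38, adjusted p = 0.039) was lost without WT replicate 1 or either Wg++ replicate (adjusted p between 0.11 and 0.24). Its difference in Otk++ was 1.30 ± 0.38, with no overlap between the arrays, and did not pass the test (adjusted p = 0.17).

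**Figure D4:**
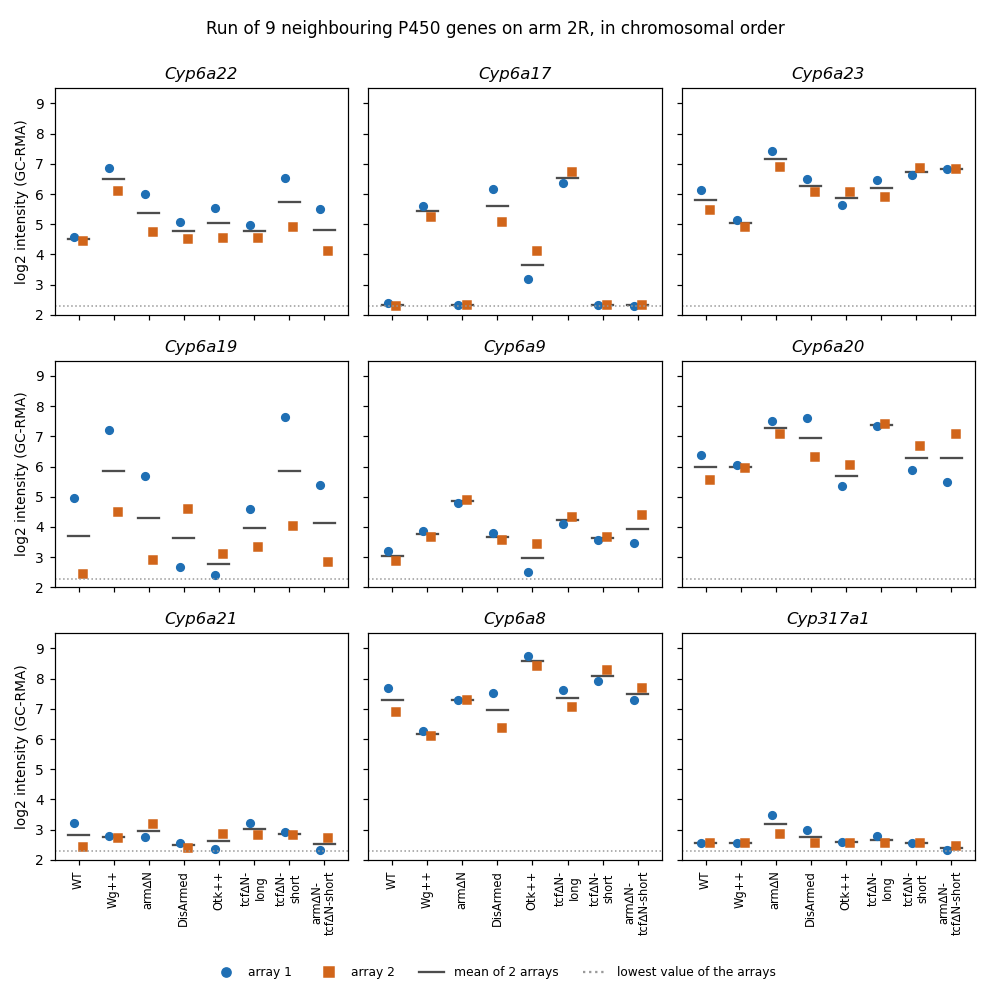
Log2 intensity (GC-RMA) of the 9 neighbouring P450 genes of the run on 2R, in chromosomal order, by genotype. Blue circles and orange squares are arrays 1 and 2, bars their mean, and the dotted line the lowest value of the arrays. The step of Cyp6a17 from about 2.3 to values up to 6.73 is not seen in the genes beside it, and the 2 arrays of Cyp6a19 lie up to 3.62 apart.

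In Wg++ 10 of the 21 lower calls and 4 of the 6 higher calls remained in every fit without 1 array. Beside Cyp28d2 and Cyp309a1, these lower genes were of the CYP3, CYP4 and mitochondrial clans. Cyp4d1, a CYP4 gene, read 6.36 and 5.41 in WT and 3.10 and 2.92 in Wg++, and fell by 2.87 ± 0.36 (7.33-fold, adjusted p = 0.00067). Its other arrays, apart from arm∆N, lay between 4.20 and 4.66 in DisArmed and between 4.85 and 6.38 in the remaining 4 genotypes. Cyp4d14, of the same subfamily, read 7.15 and 5.74 in WT and 3.72 and 4.21 in Wg++, and fell by 2.49 ± 0.51 (5.60-fold, adjusted p = 0.0043). Cyp49a1, of the mitochondrial clan, read 4.88 and 5.0 in WT and 2.84 and 2.87 in Wg++, a fall of 2.09 ± 0.31 (adjusted p = 0.0013) that the floor limits. Cyp12c1, of the same clan, read 6.54 and 6.22 in WT and 4.34 and 4.88 in Wg++, and fell by 1.77 ± 0.42 (adjusted p = 0.0083). Cyp12c1 was as low in DisArmed, at 4.61 and 4.78, where it did not pass the test (adjusted p = 0.18), and highest in tcf∆N-short, at 6.89 and 7.56, and arm∆N-tcf∆N-short, at 6.95 and 7.51. It read 4.94 and 5.77 in arm∆N, 4.96 and 5.92 in Otk++, and 5.88 and 6.64 in tcf∆N-long. No array of Wg++ overlapped WT in any of the 4.

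Cyp6d5, a CYP3 gene that xenobiotics induce, read 8.97 and 9.03 in WT and 6.84 and 7.32 in Wg++, and fell by 1.91 ± 0.23 (3.77-fold, adjusted p = 0.00061). Apart from arm∆N it lay between 8.39 and 9.48 in every other genotype. Cyp6a16 fell by 1.42, Cyp4e1 by 1.11 and Cyp4ad1 by 1.07 on the log2 scale, the last 2 to means near the floor. Cyp4ad1 read 3.75 and 3.22 in WT, 2.39 and 2.43 in Wg++, and 4.66 and 4.19 in DisArmed, its highest arrays. It read 3.32 and 3.14 in arm∆N, 2.88 and 3.18 in Otk++, 3.54 and 3.04 in tcf∆N-long, 2.99 and 2.57 in tcf∆N-short, and 2.61 and 2.39 in arm∆N-tcf∆N-short. In the last it was called lower (−0.98 ± 0.26, adjusted p = 0.096), and of the 16 fits only that without WT replicate 2 kept this call (adjusted p between 0.10 and 0.47 in the rest). Calls that rest on single arrays included Cyp301a1, a gene needed for the adult cuticle. It read 5.81 and 6.88 in WT and 3.92 and 5.04 in Wg++ (−1.87 ± 0.49, adjusted p = 0.014), and its call was lost without WT replicate 2 or Wg++ replicate 1 (adjusted p between 0.11 and 0.13).

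The higher genes in Wg++ were all of family 6. Cyp6d4 read 4.22 and 3.99 in WT and 6.08 and 6.14 in Wg++, and rose by 2.00 ± 0.36 (adjusted p = 0.0024). Cyp6a14 read 4.41 and 3.41 in WT and 5.54 and 5.84 in Wg++, and rose by 1.78 ± 0.45 (3.43-fold, adjusted p = 0.011). Cyp6v1 rose by 1.23 ± 0.31 (adjusted p = 0.012). A second probeset that holds Cyp6v1 is shared with shn, stood at 6.15 and 7.09 in WT and 6.25 and 6.60 in Wg++, and was not tested. Other marker lists moved with these calls. Of the summed lists, those of the fat body, Malpighian tubule, oenocyte, trachea and epidermis lay below the WT range in Wg++ and that of maternal RNAs above it, while the haemocyte sums overlapped. The 1 tested fat body gene, apolpp, read 11.59 and 12.11 in WT and 10.01 and 10.75 in Wg++. The 4 Malpighian tubule genes summed to between 248 and 292 in WT and between 115 and 155 in Wg++, and the 3 oenocyte genes to between 471 and 479 and between 156 and 235. The 4 tracheal genes summed to between 1849 and 2437 in WT and between 714 and 1080 in Wg++, and the 5 epidermal genes to between 171 and 465 and between 113 and 135. The summed maternal list lay between 950 and 1259 in WT and between 2462 and 2729 in Wg++. The part of these tissues and of the age of the embryos in the Wg++ calls was not tested.

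In arm∆N Cyp4d1 fell too, from 6.36 and 5.41 to 3.22 and 2.70 (−2.93 ± 0.36, adjusted p = 0.00098), a size that the floor limits. Cyp4e1 read 3.39 and 3.79 in WT, 2.57 and 2.39 in Wg++, and 2.69 and 2.76 in arm∆N. It fell in arm∆N by 0.87 ± 0.20 (adjusted p = 0.017), a size that the floor limits. It was as low in tcf∆N-long, at 2.65 and 2.86 (−0.84 ± 0.20, adjusted p = 0.062), a call lost without WT replicate 2 or either tcf∆N-long replicate (adjusted p between 0.14 and 0.30). It read 2.83 and 2.59 in DisArmed, where it did not pass the test (adjusted p = 0.12), 3.98 and 4.01 in Otk++, 3.23 and 3.28 in tcf∆N-short, and 3.08 and 3.49 in arm∆N-tcf∆N-short. Cyp6d5, at 8.20 and 7.88, was called lower (−0.95 ± 0.23, adjusted p = 0.022), a call lost without arm∆N replicate 2 (adjusted p = 0.13). Cyp4d14 was called lower too (−1.69 ± 0.51, adjusted p = 0.051), a call lost without WT replicate 1 or either arm∆N replicate (adjusted p between 0.14 and 0.33). Outside the midgut, the oenocyte sum lay between 216 and 385 in arm∆N, below WT. The tracheal sum (2523 to 3790) and that of 4 haemocyte genes (8043 to 8146, against 4354 to 5664 in WT) lay above WT. None of the genes of these lists was called in arm∆N. The tracheal sum lay above WT in DisArmed (2529 to 3963) and Otk++ (3430 to 4969) too. The haemocyte sum did so in DisArmed (6249 to 7843). The part of these tissues in the arm∆N calls was not tested.

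Cyp6a14 was the member that rose most in arm∆N, to 7.23 and 6.49 (2.95 ± 0.45, 7.70-fold, adjusted p = 0.0028). It read 4.61 and 5.36 in tcf∆N-long, 5.61 and 5.64 in tcf∆N-short, 4.73 and 5.24 in arm∆N-tcf∆N-short, 3.65 and 3.07 in DisArmed, and 3.20 and 4.27 in Otk++. Only in the last 2 did its arrays overlap those of WT. Cyp6a2, a gene known from insecticide resistant strains, read 4.99 and 4.47 in WT and 6.73 and 6.64 in arm∆N (1.96 ± 0.54, adjusted p = 0.038), a call lost without WT replicate 2 or either arm∆N replicate (adjusted p between 0.125 and 0.133). Cyp4p3 read 4.86 and 3.52 in WT and 6.02 and 5.62 in arm∆N (1.63 ± 0.48, adjusted p = 0.047), a call lost without the same arrays (adjusted p between 0.11 and 0.23). Cyp9b2 was called higher (1.44 ± 0.36, adjusted p = 0.026), a call lost without arm∆N replicate 2 (adjusted p = 0.14).

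In the embryos with shortened TCF, Cyp304a1 and Cyp49a1 fell. Cyp304a1, a CYP2 gene, read 6.58 and 6.93 in WT, 5.45 and 5.96 in tcf∆N-long, 2.98 and 3.50 in tcf∆N-short, and 4.18 and 5.13 in arm∆N-tcf∆N-short. It fell by 3.51 ± 0.53 in tcf∆N-short (11.4-fold, adjusted p = 0.0037). In arm∆N-tcf∆N-short it was called lower (−2.09 ± 0.53, adjusted p = 0.083) in the fit of all arrays and in the 4 fits without a Wg++ or an Otk++ replicate, but in none of the other 12 (adjusted p between 0.11 and 0.32). Cyp49a1 read 3.39 and 3.60 in tcf∆N-long, 2.97 and 3.0 in tcf∆N-short, and 2.90 and 3.67 in arm∆N-tcf∆N-short. It fell by 1.96 ± 0.31 in tcf∆N-short (adjusted p = 0.0048), a size that the floor limits. It was called lower in tcf∆N-long (−1.45 ± 0.31, adjusted p = 0.050; lost without WT replicate 1 or either tcf∆N-long replicate, adjusted p between 0.14 and 0.27). The call in arm∆N-tcf∆N-short (−1.66 ± 0.31, adjusted p = 0.019) was lost without that genotype's replicate 1 (adjusted p = 0.12).

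Beside Cyp28d2 and Cyp309a1, Cyp4ac1 rose in tcf∆N-short, from 2.69 and 2.34 to 3.88 and 3.86 (1.35 ± 0.24, adjusted p = 0.0089), a size limited by the floor. Cyp9b1 was called higher (0.68 ± 0.19, adjusted p = 0.076) and Cyp4c3 lower (−1.59 ± 0.49, adjusted p = 0.099), calls that were each lost in 9 of the 16 fits without 1 array (adjusted p between 0.10 and 0.51). Cyp6a14 was called higher there (1.72 ± 0.45, adjusted p = 0.056), a call lost without WT replicate 2 or either tcf∆N-short replicate (adjusted p between 0.12 and 0.23). Cyp6a2 read 7.16 and 7.22 in tcf∆N-long (2.46 ± 0.54, 5.50-fold, adjusted p = 0.051), a call lost without either WT or either tcf∆N-long replicate (adjusted p between 0.11 and 0.25). In arm∆N-tcf∆N-short it read 6.27 and 7.39 (2.10 ± 0.54, adjusted p = 0.086), and was called in 3 of the 16 fits without 1 array, those without either Otk++ replicate or that genotype's replicate 1 (adjusted p between 0.12 and 0.45 in the rest). In tcf∆N-short it read 6.29 and 6.63 and did not pass the test (1.73 ± 0.54, adjusted p = 0.11). The Malpighian tubule sum was below WT in all 3 genotypes, between 204 and 211 in tcf∆N-long, 123 and 147 in tcf∆N-short, and 167 and 175 in arm∆N-tcf∆N-short. The oenocyte sum was below WT in tcf∆N-short (228 to 417), the epidermal sum barely so (167 to 168), and the haemocyte sum was above WT in tcf∆N-long (6389 to 6607). Of the genes in these lists, 1 Malpighian tubule gene and 1 epidermal gene were called lower in tcf∆N-short (5.2% of all genes). No other was called in these genotypes. The part of these tissues in the calls was not tested.

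When tcf∆N-short was set against tcf∆N-long, which differ in the parts of TCF that are missing, 4 members were called (6.45%; 3.19% of all genes), 1 of them higher in tcf∆N-short (1.08% of all genes) and 3 lower (2.11%). Beside Cyp6a17, these were Cyp304a1 (−2.46 ± 0.53, adjusted p = 0.045), Cyp305a1 (−1.34 ± 0.30, adjusted p = 0.054) and Cyp309a1 (1.12 ± 0.23, adjusted p = 0.037). All 3 calls were lost without either tcf∆N-long replicate. Those of Cyp305a1 and Cyp309a1 were lost without tcf∆N-short replicate 2 too, and that of Cyp304a1 without tcf∆N-short replicate 1 (adjusted p between 0.10 and 0.34 over the 3 genes). The count was 1 without either tcf∆N-long replicate and 7 without either Otk++ replicate. Cyp28d1 and Cyp28d2 differed by −1.21 and 1.13 and did not pass the test (adjusted p = 0.29 and 0.19).

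Adding arm∆N to tcf∆N-short moved no member past the threshold in limma (0 of 62, against 0.169% of all genes, 0.102% higher and 0.0677% lower). The differences ran from −1.72 for Cyp6a19 to 1.42 for Cyp304a1, with a median SE of 0.34. Cyp28d2 differed by −0.32 ± 0.37, Cyp309a1 by −0.38 ± 0.23 and Cyp4d1 by −0.32 ± 0.36. The effect of arm∆N with tcf∆N-short present differed from its effect in WT for 10 members (16.1%; 11.2% of all genes), 6 of them in the positive direction (7.08% of all genes) and 4 in the negative (4.12%).

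In Otk++ limma called none of the 62 members (0.327% of all genes), with a median SE of 0.34 on the log2 scale. The count was 4 without WT replicate 2 and 1 without Otk++ replicate 2. The smallest p were those of Cyp6d4, Cyp12a4 and Cyp6a17. Cyp6d4 read 6.13 and 4.87 in Otk++ (1.39 ± 0.36, adjusted p = 0.16). Cyp12a4, which confers lufenuron resistance when overexpressed, read 7.24 and 6.17 in WT and 4.41 and 5.48 in Otk++ (−1.76 ± 0.47, adjusted p = 0.16). Cyp4p1 and Cyp4p2, neighbours on 2R, read 4.43 and 5.86, and 5.91 and 6.03, in Otk++, each below both WT arrays, and did not pass the test. Otk++ had more members over 1 apart between its arrays than any other genotype, 14 of 62. In DisArmed, Cyp28d2 (lower) and Cyp6a17 (higher) were the members called. Cyp4p2 had its lowest genotype mean there, at 5.94 and 5.52 against 6.95 and 7.25 in WT, a difference that missed the threshold (−1.37 ± 0.35, adjusted p = 0.19). Cyp4p2 passed the F test over all genotypes (adjusted p = 0.0027) without a call in any single comparison with WT, at 6.45 and 6.55 in Wg++, 7.79 and 7.97 in arm∆N, 7.57 and 7.92 in tcf∆N-long, 7.32 and 8.26 in tcf∆N-short, and 7.55 and 8.50 in arm∆N-tcf∆N-short.

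By clan, 32 of the tested members were CYP3, 20 CYP4, 7 mitochondrial and 3 CYP2. In Wg++ 6 CYP3 members were higher (18.8%, the share of all genes called higher) and 10 lower (31.3%; 22.1% of all genes). The called members of the other clans were all lower there, 6 CYP4, 3 mitochondrial and 2 CYP2. In arm∆N 7 CYP3 members were higher (21.9%, against 7.92% of all genes) and 5 lower (15.6%, against 11.6%). Of CYP4 members 1 was higher (5%) and 4 lower (20%) there. The 4 members called higher in tcf∆N-long (12.5% of CYP3, against 1.48% of all genes) were all CYP3, Cyp6a17 among them. So were the 3 called higher in arm∆N-tcf∆N-short (9.38%, against 1.7%). Most of the calls in these 2 genotypes did not remain in every fit without 1 array. In tcf∆N-short 4 CYP3 members were higher (12.5%; 2.51%) and none lower. The difference between clans was not tested.

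Genes in the same run of neighbours did not always share a call. Of 15 such runs, that of Cyp4d14 and Cyp4d2 on X had differences of −2.49 and −0.65 in Wg++, that of Cyp6a14 and Cyp6a13 on 2R 1.78 and −0.19, and the Cyp309a pair −2.06 and −1.17. In arm∆N all 3 genes of the Cyp4p run on 2R lay above WT, at 0.78 for Cyp4p2, 0.92 for Cyp4p1 and 1.63 for Cyp4p3, of which Cyp4p3 was called.

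The genes that serve P450 enzymes moved in part. Of 8 listed redox partners 5 were tested, and 3 were called lower in Wg++ (22.1% of all genes). Cpr, the reductase that passes electrons to microsomal P450 enzymes, was on the list but was not tested, nor were dare and Fdxh. Cyt-b5, an accessory electron donor of microsomal P450 enzymes, read 10.31 and 10.14 in WT and 9.28 and 9.36 in Wg++ (−0.91 ± 0.16, adjusted p = 0.0021). The ferredoxins Fdx1 and Fdx2, which pass electrons in mitochondria, differed by −0.78 ± 0.25 and −0.85 ± 0.25 (adjusted p = 0.031 and 0.024). In arm∆N Cyt-b5-r and CG13893 were called higher (7.92% of all genes) and Fdx1 lower (11.6%). Cyt-b5-r, a cytochrome b5 relative, read 6.59 and 6.99 in WT, 8.26 and 8.42 in arm∆N, and 5.11 and 5.84 in tcf∆N-short, where it was called lower (−1.31 ± 0.29, adjusted p = 0.028).

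None of the 5 tested genes of ecdysone synthesis, spo, sad, shd, dib and sro, was called in any comparison, and none of their arrays came above 5.26. Cyp18a1, which inactivates ecdysone, was called in none either by the probeset taken here. A second probeset of Cyp18a1 read 7.11 and 7.66 in WT, 4.95 and 6.25 in Wg++, and 4.99 and 6.21 in tcf∆N-short, with no overlap with WT. Under the choice of the probeset with the highest mean, Cyp18a1 was called lower in Wg++ (−1.79 ± 0.51, adjusted p = 0.020) and in tcf∆N-short (−1.79 ± 0.51, adjusted p = 0.077), so its call rests on the probeset, and no array was left out in that fit. Of 7 regulators of the response to foreign compounds, cnc, Keap1, maf-S, Hr96, tgo and Hnf4 were called in no comparison. The seventh, ss, a partner of tgo, was called lower in tcf∆N-short (−1.13 ± 0.20, adjusted p = 0.0079), Wg++ (−0.77 ± 0.20) and tcf∆N-long (−0.75 ± 0.20). Of 10 tested P450 genes known to be induced by foreign compounds, Wg++ had 2 higher (18.8% of all genes) and 2 lower (22.1%), and arm∆N 2 higher (7.92%) and 1 lower (11.6%). Of these 7 calls, that of Cyp6a9 in Wg++ (0.75 ± 0.33, adjusted p = 0.098) was lost in 12 of the 16 fits without 1 array, those of Cyp6a8 in Wg++ and Cyp6a2 in arm∆N in 3 each and that of Cyp6d5 in arm∆N in 1. Cyp4g1, which makes the cuticular hydrocarbons of the oenocytes, was called in no comparison and lay between 6.20 and 7.52 on all arrays.

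The values of Cyp6a19 and Cyp18a1 differed widely between the arrays of a genotype. Cyp6a19, of the run on 2R, read 4.95 and 2.43 in WT, 4.59 and 3.34 in tcf∆N-long, 7.66 and 4.04 in tcf∆N-short, and 7.21 and 4.51 in Wg++. It read 5.67 and 2.91 in arm∆N, 5.40 and 2.85 in arm∆N-tcf∆N-short, 2.69 and 4.58 in DisArmed, and 2.41 and 3.12 in Otk++. Its SE of 1.48 was the largest of the members, and it was called in no comparison. In 8 of 8 genotypes the array with more Cyp6a19 was the one with more exu and more gnu, both maternal RNAs, genes singled out after their values were seen. Among the other 5 tested maternal genes the order was shared in 4 to 7 genotypes. Among the 11 midgut genes it was shared in 2 to 7, the most for Jon99Ci, and among the 5 epidermal genes in 2 or 3. Cyp18a1 was higher in array 2 in 7 of 8 genotypes, by 1.85 in WT and 1.67 in Wg++, and arm∆N-tcf∆N-short was the exception. The age of the pooled embryos on each array is not given, and its part in these differences was not tested.

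The filter turns on the second highest value of a gene over the arrays. The members just inside were Cyp12d1-d (2.52), Cyp6w1 (2.55) and Cyp9h1 (2.75). Cyp6w1 and Cyp12d1-d, both induced by foreign compounds, and Cyp9h1 were called in no comparison. Just outside were Cyp6t1 (2.39), Cyp12b2 (2.36) and Cyp313a4 (2.34). The highest value of any untested P450 gene was 2.84, for Cyp6t1 on tcf∆N-short replicate 1.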

How the data were processed

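The authors hybridised RNA of naïve embryos to Affymetrix Drosophila 2 arrays, 2 per genotype, and deposited log2 intensities after GC-RMA, named GCRMA in the submitters' processing notes. These 16 columns were used as deposited, without further scaling. Of 18952 probesets, 13647 name 1 gene, 402 several and 4903 none in the array annotation; 13544 matched the RefSeq gene table (Release 6 plus ISO1 MT), and 8860 genes passed the filter. One linear model with a mean per genotype was fitted in limma 3.58.1 (R 4.3.3) to all 16 arrays. It used empirical Bayes spread and Benjamini-Hochberg adjustment over the 8860 genes. Simulated data with independent noise, in which only genes with a mean above 4 were changed, were fitted too. Of 2-fold changes, 53.7% were recovered in Wg++ against WT and 38.8% in DisArmed against WT. Changes of dimmer members were not covered. An F test over the 7 comparisons with WT used a false discovery rate of 1%, and single comparisons a fold change of 1.5 and 10%. SE is that of the fit. Genes were named by F-test rank (the 12 lowest p on every array), by size of change (up to 5 called members in each direction per comparison with WT), by closeness to the filter or to Cyp28d2 and Cyp6a17, and from lists of redox partners, ecdysone synthesis and xenobiotic regulators. Members and lists were chosen with earlier results of these data known. Alternatives left out each array in turn, the filter, the other genotypes or the shared spread, or added cyclic loess, another probeset choice, a replicate block or a stricter rate. The number of arrays limits the precision.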

Additional observations from a re-analysis of the deposited data

Results flagged for a closer look

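The effect of arm∆N with tcf∆N-short present (arm∆N-tcf∆N-short minus tcf∆N-short) differed from its effect without it (arm∆N minus WT) in 10 members, by an interaction term in the same limma model, against 11.2% of all genes. Cyp28d2 differed by 4.28 ± 0.52 on the log2 scale (adjusted p = 0.0023), with effects of −4.60 without tcf∆N-short and −0.32 with it. Cyp4d1 differed by 2.61 (−2.93 and −0.32, adjusted p = 0.020), Cyp309a1 by 1.59 (−1.97 and −0.38, adjusted p = 0.023) and Cyp6a14 by −3.58 (2.95 and −0.64, adjusted p = 0.014). These 4 differences passed the threshold in all 16 fits that left out 1 array. The other 6 were lost in 10 to 13 of those fits. They were Cyp304a1 (2.54), Cyp313b1 (1.02), Cyp4e1 (0.90), Cyp6a23 (−1.28), Cyp6a9 (−1.49) and Cyp6d4 (−1.66), with adjusted p between 0.076 and 0.097.

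A probeset that reads both Cyp12d1-d and Cyp12d1-p, a pair of near-identical genes, was left out of the tests because it names 2 genes. It stood at 5.18 ± 0.27 (SD, n = 2) in tcf∆N-short and 4.01 ± 0.24 (SD, n = 2) in WT, a difference of 1.17 that was not tested.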

How the results depend on the processing

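None of the 70 calls of a member reversed direction under any alternative run. Without the filter 14 were lost, with the filter at 4 instead of 2.5 1 of the 63 with a value, with trend and robust spread 2, with cyclic loess 12, with only the arrays of the 2 groups 34, at a rate of 5% 21, and with the other probeset choice 0.

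Members altered in any genotype numbered 18, and 6 without the filter, 31 at a rate of 5% and 7 to 20 when 1 array was left out. Leaving out 1 array gave 14 to 29 called members in Wg++ (27 with all arrays), 10 to 20 in arm∆N (17), 6 to 12 in tcf∆N-short (8), 1 to 10 in tcf∆N-long (6), 2 to 4 in DisArmed (2), 0 to 4 in Otk++ (0), 2 to 7 in arm∆N-tcf∆N-short (6) and 1 to 7 for both TCF forms compared (4). With only the 2 groups compared in the fit, counts were 7 in arm∆N, 4 in tcf∆N-short, 1 in tcf∆N-long, 0 in DisArmed, 0 in arm∆N-tcf∆N-short and 1 between both TCF forms, where fewer arrays give the spread. Without the filter they were 4 in DisArmed, 3 in arm∆N-tcf∆N-short and 2 between both TCF forms. At 5% they were 5 in tcf∆N-short and 3 in arm∆N-tcf∆N-short, and with trend and robust spread 4 in DisArmed. Cyclic loess gave 6 higher and 14 lower in Wg++. The looser 2-level criterion, added after seeing the data, took 1 member in place of 0. The shares of all genes under these alternatives are not given, so the shifts cannot be set against those of all genes. The cause of these shifts was not tested.

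Arrays of 2 genotypes share only a replicate number. Deviations of same-numbered arrays correlated between −0.53 (DisArmed and Otk++) and 0.68 (tcf∆N-short and arm∆N-tcf∆N-short), above 0 in 21 of 28 pairs of genotypes. With the replicate number as a block no call was lost, and counts were 20 in tcf∆N-short (12 higher, 8 lower), 11 in tcf∆N-long (6 and 5), 5 in DisArmed (1 and 4), 5 in Otk++ (3 and 2) and 7 between both TCF forms.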
